A study of Mus musculus with 6 samples.

Results

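The 9 genes Gnal, Gng7, Adcy5, Pde10a, Pde1b, Rgs9, Ppp1r1b, Arpp21 and Rasd2 encode parts of the cAMP and G protein signalling pathway of striatal projection neurons. They were taken by symbol from a table of read counts for 55416 genes, and each symbol matched 1 row. RNA had been sequenced from mouse ganglionic eminences at E13.5, a stage of mid-gestation. These swellings of the ventral forebrain give rise to striatal projection neurons and to many cortical interneurons. The 6 libraries were 3 from wild-type littermates and 3 from double knockouts that lacked Dlx1 and Dlx2, which lie side by side and encode homeodomain transcription factors. The labels give no strain, sex, allele design or deleted segment, and do not say whether a library came from 1 embryo or from pooled embryos. The p-values below therefore measure the spread between these libraries, which may be technical in part.

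In the mature striatum, dopamine and adenosine receptors act on adenylyl cyclase through the stimulatory G protein Golf, whose alpha subunit is the product of Gnal and whose gamma subunit is the product of Gng7. The cAMP formed by the cyclase encoded by Adcy5 activates protein kinase A, which phosphorylates DARPP-32 (Ppp1r1b) and ARPP-21 (Arpp21), and phosphodiesterases such as those encoded by Pde10a and Pde1b break cAMP down. Rgs9 encodes a protein that speeds the shutting off of inhibitory G proteins, and Rasd2 encodes Rhes, a small GTPase of the striatum. Many of these genes are known mainly from the adult striatum, and E13.5 is early in the birth of its neurons.

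Total counts were between 56618090 and 70114173 per library. The targeted genes followed the labels in all libraries, at 74.9, 75.8 and 94.0 CPM (read counts scaled to library size with TMM factors) for Dlx1 in the double knockout against 434.0 to 445.7 CPM in the wild type. Dlx2 was at 7.50 to 10.99 CPM against 281.8 to 313.3 CPM. All 9 ganglionic eminence markers, among them Gad1, Gad2, Nkx2-1, Lhx6 and Gsx2, were present in every library, with at least 328 reads, and 4 of them were called lower and 3 higher. Over all 23628 genes tested in edgeR, 1.34% were called lower and 1.34% higher. Of 16 striatal transcription factor genes 11 were called lower and 1 higher, and their summed level was 2152 to 2161 CPM in wild-type and 1485 to 1653 CPM in double knockout libraries. The 12 neuron markers had a summed level of 7321 to 7996 CPM in the wild-type libraries and 6009 to 7055 CPM in the double knockout, without overlap, although only Elavl3 and Snap25 passed the test. Summed progenitor markers were at 2826 to 3208 CPM and 3273 to 3888 CPM, also without overlap, and 1 of 10, Hes5, was called higher. Summed cortical excitatory markers were at 1002 to 1025 CPM and 780.0 to 801.8 CPM, with 1 of 10, Neurod2, called lower. Summed markers of hypothalamus and thalamus (1 of 7 tested genes called higher, Otp) were at 88.4 to 102.5 CPM and 212.0 to 253.5 CPM, and those of the oligodendrocyte lineage (6 of 9 called higher) at 115.8 to 117.7 CPM and 186.0 to 223.4 CPM. Otp alone was at 9.44 ± 3.63 and 118.4 ± 4.78 CPM (SD, n = 3) and made up most of the difference in the first of these sums. Of all these markers Rax was the only one at 0 in a library. The part of these lists in the results below was not tested. The vessel, microglia and blood lists, of 6, 6 and 7 genes, overlapped between groups in their sums and held no gene called by edgeR, DESeq2 or limma-voom, nor any with an unadjusted p under 0.05.

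All 9 signalling genes were detected in every library, with 22 to 5142 reads, and all passed the filter on low counts. They were thus expressed in the double knockout as well as in the wild type. Gng7 and Pde10a were lower in the double knockout, at 68.8% and 70.2% of their wild-type means. The other 7 did not pass the threshold, and none was called higher. Without wild-type replicate 1 or 3 none of the 9 passed, and without double knockout replicate 3 the count of lower genes was 3. The count of 2 lower genes among 9 compares with 1.34% of the 23628 tested genes called lower by the quasi-likelihood test of edgeR, with a Benjamini-Hochberg adjusted p below 0.05. The double knockout libraries lay wholly below the wild-type libraries for 3 of the 9, Gng7, Pde10a and Gnal, against 10.2% of tested genes, and wholly above them for none, against 9.3%. The fitted log2 fold change was negative for all 9, with a median of -0.33, and the median over all tested genes was -0.0016. It was also negative for all 12 neuron markers (median -0.19) and for 9 of 10 cortical excitatory markers (median -0.39). In these lists 6 and 7 genes lay wholly lower in the double knockout. Of the 10 progenitor markers 1 was negative (median 0.25). Lower values were thus not particular to the signalling genes. In bulk tissue, fewer cells of a type and less RNA per cell cannot be told apart.

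**Figure D1:**
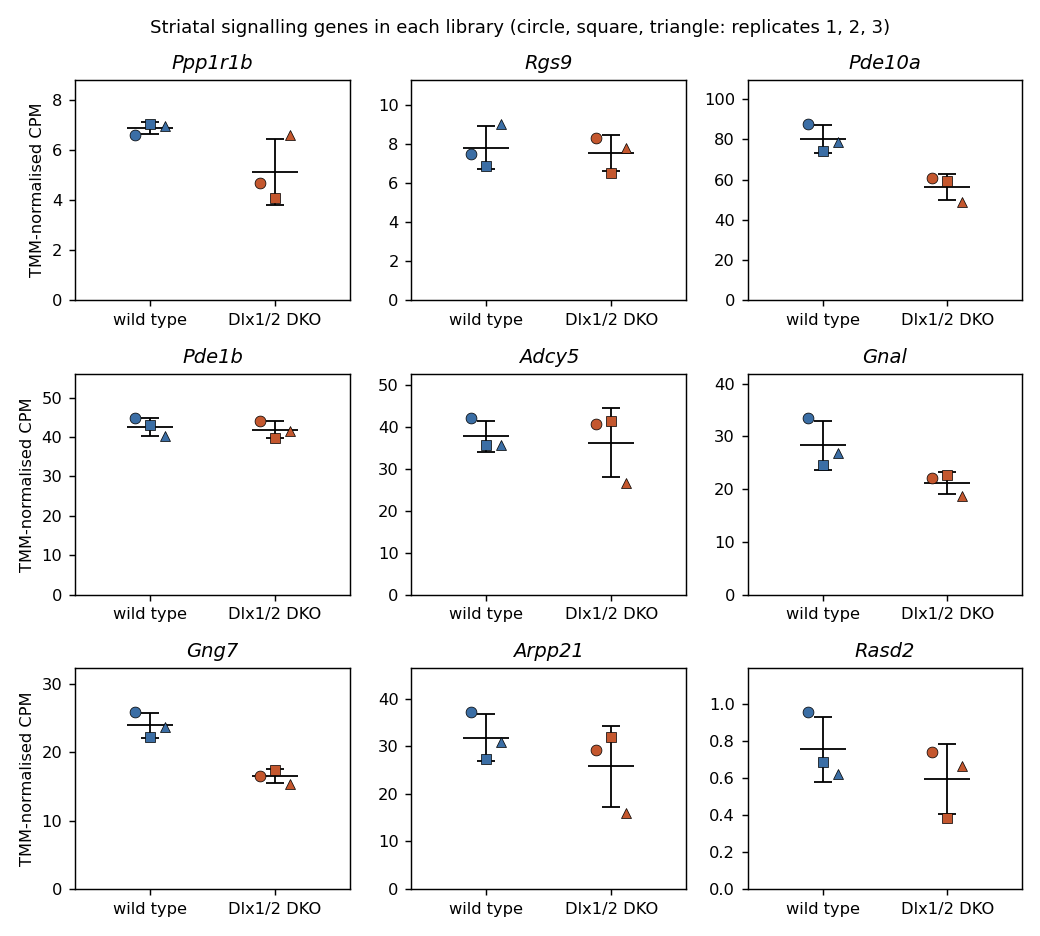
TMM-normalised CPM of the 9 signalling genes in each of the 6 libraries, with the mean and SD of the 3 libraries of each group as black bars. Each vertical axis starts at 0. Gng7, Pde10a and Gnal separate the groups, and double knockout replicate 3 lies below the other double knockout libraries for Adcy5 and Arpp21.

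The Golf subunits were examined first. Gng7 (ENSMUSG00000048240), the gamma subunit gene, was at 25.8, 22.2 and 23.8 CPM in wild-type replicates 1 to 3 and at 16.6, 17.4 and 15.4 CPM in double knockout replicates 1 to 3. The groups did not overlap, and the lowest wild-type library was above the highest double knockout library by more than either group's SD, with means of 23.9 ± 1.83 and 16.5 ± 1.01 CPM (SD, n = 3). Its log2 fold change was -0.54 (SE 0.0852) and edgeR adjusted p was 0.0131. Its 95% interval ran from -0.73 to -0.35. Without wild-type replicate 1 the adjusted p in edgeR was 0.0614, and without wild-type replicate 3 it was 0.0517, at log2 fold changes of -0.48 and -0.54.

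Gnal (ENSMUSG00000024524), the alpha subunit gene, was at 33.5, 24.6 and 27.0 CPM in the wild-type libraries and at 22.2, 22.6 and 18.8 CPM in the double knockout. The groups did not overlap, but the wild-type libraries varied among themselves, with wild-type replicate 1 the highest. On the log2 scale the fold change was -0.42 (SE 0.124), the 95% interval ran from -0.70 to -0.14 and the adjusted p in edgeR was 0.155. DESeq2 gave the same direction with an adjusted p of 0.0281. Gnas, which encodes the widely used stimulatory alpha subunit, had overlapping groups, with means of 81.2 ± 14.7 and 86.4 ± 15.1 CPM (SD, n = 3). Exons of Mppe1 overlap 7.63% of the exon length of Gnal on the opposite strand in the GENCODE M21 annotation, with 842 reads over the 6 libraries against 9313 for Gnal. For Gnas, with 31621 reads, Nespas and Gm20721 overlap 8.83% and 13.1% of the exon length on the opposite strand, with 2188 and 93 reads. How many reads lay in these overlaps was not measured, and the strand setting of the counting is not given in the sources used here.

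Adcy5 (ENSMUSG00000022840), the main adenylyl cyclase gene of the adult striatum, was at 42.0, 35.6 and 35.7 CPM in the wild-type libraries and at 40.5, 41.3 and 26.7 CPM in the double knockout. Double knockout replicates 1 and 2 lay within the wild-type range, and replicate 3 was below every other library. The log2 fold change was -0.06 (SE 0.157), and its 95% interval from -0.42 to 0.30 includes changes in both directions. Without double knockout replicate 3 the fitted value was 0.12, and without wild-type replicate 1 it was 0.02.

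The 2 phosphodiesterase genes differed from each other in their values. Pde10a (ENSMUSG00000023868), whose enzyme degrades cAMP and cGMP in medium spiny neurons, was at 87.8, 74.3 and 78.9 CPM in the wild-type libraries and at 61.0, 59.2 and 48.9 CPM in the double knockout. Every double knockout library was below every wild-type library, with double knockout replicate 3 the lowest. The means were 80.3 ± 6.82 and 56.4 ± 6.53 CPM (SD, n = 3). Its log2 fold change was -0.51 (SE 0.0936), the 95% interval ran from -0.72 to -0.30 and the adjusted p in edgeR was 0.0262.

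The call for Pde10a was lost in 6 of 14 alternative fits, although the direction held in all 14, with log2 fold changes from -0.57 to -0.41. The adjusted p was 0.105, 0.0519 and 0.086 in edgeR without wild-type replicates 1, 2 and 3 in turn, and 0.0603 without double knockout replicate 2. It was 0.05002 with total count scaling and 0.0793 with Y-linked expression, which was present in 1 wild-type and 2 double knockout libraries, as a covariate in edgeR.

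Pde1b (ENSMUSG00000022489), whose product is a phosphodiesterase activated by calcium and calmodulin, was at 44.8, 42.9 and 40.2 CPM in the wild-type libraries and at 44.2, 39.8 and 41.6 CPM in the double knockout. The groups overlapped closely. Pde1b had the narrowest 95% interval of the 9 genes, from -0.18 to 0.12 around a log2 fold change of -0.03. With total count scaling its fitted value was 0.00.

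Windows around the annotated starts of Pde10a and Gng7, the 2 called genes, are shown with 1 of the 3 windows of Pde1b, a gene that was not called. Each holds 250 bases before and 50 bases after a start in RefSeq (build GRCm38.p6) and is printed 5′ to 3′ on the strand of the gene. Capitals mark TAATT, the core recognised by many homeodomain factors, or TGACG, a half-site of the cAMP response element, on either strand. The coordinates belong to that build and not to GRCm39, which the submitters' processing notes name.

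Pde10a window 1, chr17:8801495-8801794, plus strand: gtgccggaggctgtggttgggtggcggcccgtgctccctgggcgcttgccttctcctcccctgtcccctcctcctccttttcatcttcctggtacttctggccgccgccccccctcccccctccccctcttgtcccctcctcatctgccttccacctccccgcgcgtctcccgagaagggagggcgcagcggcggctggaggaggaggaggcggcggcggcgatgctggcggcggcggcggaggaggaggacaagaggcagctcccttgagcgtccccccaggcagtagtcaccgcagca
Pde10a window 2, chr17:8849735-8850034, plus strand: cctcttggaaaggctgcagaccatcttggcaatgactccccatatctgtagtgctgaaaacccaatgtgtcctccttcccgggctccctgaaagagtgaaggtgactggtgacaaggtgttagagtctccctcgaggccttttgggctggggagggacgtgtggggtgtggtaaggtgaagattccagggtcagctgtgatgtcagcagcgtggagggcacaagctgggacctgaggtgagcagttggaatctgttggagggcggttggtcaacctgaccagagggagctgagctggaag
Gng7 window 1, chr10:81014876-81015175, minus strand: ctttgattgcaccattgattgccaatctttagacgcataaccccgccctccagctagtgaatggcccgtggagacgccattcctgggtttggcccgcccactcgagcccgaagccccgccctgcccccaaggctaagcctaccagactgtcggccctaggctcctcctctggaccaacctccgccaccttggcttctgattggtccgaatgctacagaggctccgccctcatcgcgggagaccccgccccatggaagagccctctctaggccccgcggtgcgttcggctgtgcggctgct
Gng7 window 2, chr10:81001316-81001615, minus strand: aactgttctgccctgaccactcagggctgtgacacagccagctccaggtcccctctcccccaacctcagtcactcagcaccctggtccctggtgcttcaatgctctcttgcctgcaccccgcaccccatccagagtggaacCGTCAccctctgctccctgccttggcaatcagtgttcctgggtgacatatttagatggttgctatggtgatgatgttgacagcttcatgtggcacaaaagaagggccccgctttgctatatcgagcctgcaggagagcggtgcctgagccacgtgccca
Pde1b window 3, chr15:103514727-103515026, plus strand: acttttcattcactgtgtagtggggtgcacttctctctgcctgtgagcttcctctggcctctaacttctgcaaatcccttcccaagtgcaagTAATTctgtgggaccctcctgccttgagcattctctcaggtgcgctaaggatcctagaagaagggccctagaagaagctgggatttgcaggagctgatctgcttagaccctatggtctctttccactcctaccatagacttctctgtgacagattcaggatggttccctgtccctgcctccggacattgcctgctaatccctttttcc

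The RefSeq table held 19 windows for 7 of the 9 genes, of which 9, several of them overlapping, belonged to Arpp21. The homeodomain core was in 7 of the 19, all of Pde1b or Arpp21, and in 27% of the 32851 windows of the whole table. The longer palindrome TAATTA, which contains the core, was in none of the 19 and in 5.29% of all windows. In the printed Pde1b window the core begins 158 bases before the start. Neither window of Pde10a nor of Gng7 held the core. The windows of Rgs9, Adcy5 and Rasd2, genes that were not called, and the first Pde1b window lacked it too. The cAMP response half-site was in 4 of the 19 windows and in 20.8% of all windows, and the second Gng7 window held it, on the opposite strand, from 109 bases before the start. The full palindrome TGACGTCA, which contains the half-site, was in none of the 19 and in 1.79% of all windows. These matches describe letters in short windows and not sites of binding.

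Rgs9 (ENSMUSG00000020599), the regulator of inhibitory G protein signalling, was at 7.51, 6.91 and 9.04 CPM in the wild-type libraries and at 8.32, 6.54 and 7.80 CPM in the double knockout. The groups overlapped, and the log2 fold change of -0.05 (SE 0.136) had a 95% interval from -0.36 to 0.26. Its sign was positive without wild-type replicate 3, at 0.07, and without double knockout replicate 2, at 0.04.

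The substrates of protein kinase A came next. Ppp1r1b (ENSMUSG00000061718), which encodes the phosphatase inhibitor DARPP-32, was at 6.59, 7.03 and 6.95 CPM in the wild-type libraries and at 4.68, 4.08 and 6.60 CPM in the double knockout. Double knockout replicate 3 lay at the level of the wild type, just above wild-type replicate 1, and the other double knockout libraries lay below all wild-type libraries. On the log2 scale the fold change was -0.42 (SE 0.172), the 95% interval ran from -0.81 to -0.03 and the adjusted p in edgeR was 0.334. Without double knockout replicate 3 it was -0.64 (edgeR adjusted p = 0.0292). The antisense gene 1700003D09Rik overlaps 15.7% of the exon length of Ppp1r1b in GENCODE M21, and held 46 reads over the 6 libraries against 2281 for Ppp1r1b.

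Arpp21 (ENSMUSG00000032503), whose product regulates calmodulin and binds RNA, was at 37.1, 27.4 and 30.9 CPM in the wild-type libraries and at 29.3, 31.9 and 16.0 CPM in the double knockout. As for Adcy5, double knockout replicate 3 was the lowest library and the others overlapped with the wild type. On the log2 scale the fold change was -0.31 (SE 0.23), with a 95% interval from -0.83 to 0.22, and it was -0.05 without that library. Exons of 2900079G21Rik overlap 3.33% of the exon length of Arpp21 on the opposite strand in GENCODE M21. In double knockout replicate 3 the summed neuron markers were also at their lowest of the 6 libraries, 6009 CPM, and the summed progenitor markers at their highest, 3888 CPM. Their part in these values was not tested.

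Rasd2 (ENSMUSG00000034472) was near the lower end of detection, with 56, 44 and 40 reads in the wild type and 48, 22 and 46 reads in the double knockout. These counts corresponded to 0.956, 0.685 and 0.624 CPM and to 0.740, 0.382 and 0.663 CPM. The groups overlapped, and the low value of double knockout replicate 2 rested on 22 reads, which have an exact 95% Poisson interval of 13.8 to 33.3 reads for counting error only. Its change of -0.33 on the log2 scale (SE 0.306) had a 95% interval from -1.03 to 0.37, the widest of the 9, and no change was detected.

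The 3 double knockout libraries differed in how far the 9 genes lay from the wild type. On the log2(CPM + 0.5) scale, the median deviation of the 9 genes from their wild-type means was -0.11, -0.31 and -0.49 in double knockout replicates 1 to 3. In wild-type replicates 1 to 3 it was 0.13, -0.10 and -0.03. This median of double knockout replicate 1 was close to that of wild-type replicate 2, but single genes differed. Gng7 was at 16.6 CPM in double knockout replicate 1 and 22.2 CPM in wild-type replicate 2, and Pde10a at 61.0 and 74.3 CPM. Gnal and Ppp1r1b were also lower in double knockout replicate 1, and Adcy5, Pde1b, Rgs9, Arpp21 and Rasd2 were higher. The fitted median over the 9 genes was -0.18 without wild-type replicate 1, and between -0.41 and -0.28 in the fits without any other single library.

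Relative to the summed neuron markers of the same library, a comparison added after the values were seen, Gng7, Pde10a and Gnal were lower in all 3 double knockout libraries than in any wild-type library. The log2 differences were -0.33, -0.30 and -0.20. For each, the exact two-sided permutation test gave 0.10, the smallest p that 3 libraries against 3 allow, and 0.30 after adjustment over the 9 genes. Rgs9, Pde1b and Adcy5 had positive differences on this scale, of 0.16, 0.18 and 0.13, with overlapping groups.

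Levels were compared between genes as CPM per kb of exon, with exon lengths from GENCODE M21. In the wild type Pde1b was the highest at 7.90 ± 0.424 CPM per kb (SD, n = 3), without overlap with Gng7, the next, at 6.32 ± 0.484 CPM per kb. Gng7, Pde10a at 6.25 ± 0.531 and Adcy5 at 5.26 ± 0.514 CPM per kb overlapped with their neighbours in this order. Gnal and Ppp1r1b followed at 2.54 ± 0.413 and 2.34 ± 0.081 CPM per kb, and their libraries overlapped. Arpp21 at 1.82 ± 0.282, Rgs9 at 1.22 ± 0.172 and Rasd2 at 0.238 ± 0.0557 CPM per kb each lay below the gene before them without overlap.

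In the double knockout, the level of Adcy5, at 5.04 ± 1.15 CPM per kb, ranked second, above Pde10a at 4.39 ± 0.509 and Gng7 at 4.35 ± 0.268 CPM per kb, with overlap between neighbours. The rest of the order was as in the wild type, but Arpp21, at 1.48 CPM per kb, overlapped there with Ppp1r1b, at 1.75, and with Rgs9, at 1.18 CPM per kb. These lengths count every annotated exon, so genes with many transcript forms, such as Arpp21 with 17.4 kb and Pde10a with 12.8 kb, may appear lower per kb than their main transcripts are.

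**Figure D2:**
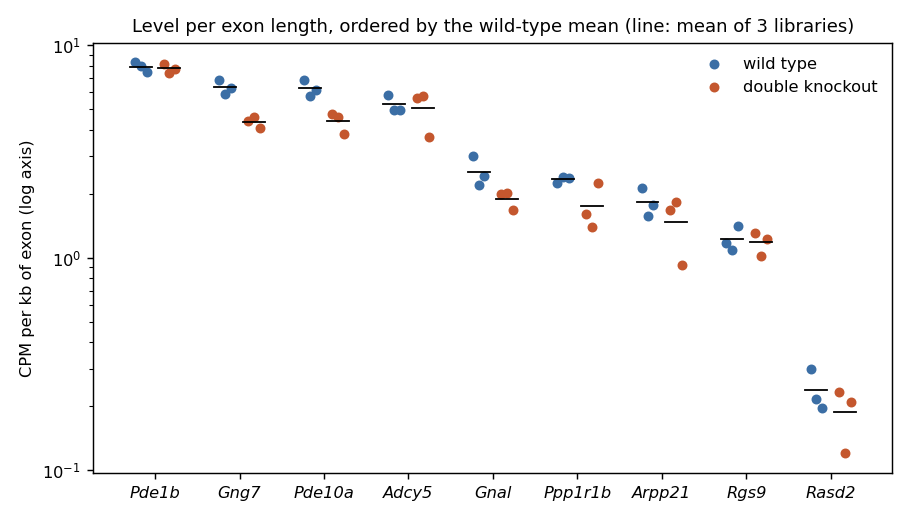
CPM per kb of exon (log axis) of the 9 genes in the 3 wild-type and 3 double knockout libraries, ordered by the wild-type mean, with the group mean as a line. Pde1b is highest in both groups, and Rasd2 is lowest, at 0.238 CPM per kb in the wild type.

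The rest of the pathway was described over 116 genes in 9 lists, of which 114 were tested. The receptor list, of 16 genes for G protein-coupled receptors of striatal neurons, held 6 called lower and 1 called higher, with a median log2 fold change of -0.51. Over all tested genes 1.34% were called lower and 1.34% higher. Oprm1, the mu opioid receptor gene, had the largest decrease in the list, with 3.63, 4.34 and 2.63 CPM in the wild-type libraries and 0.909, 0.746 and 0.461 CPM in the double knockout. Its log2 fold change was -2.33 (SE 0.28; edgeR adjusted p = 0.00331). Exons of Ipcef1, with 1939 reads against 795, overlap 1.19% of the exon length of Oprm1 on the opposite strand. Drd1, the dopamine receptor gene whose product couples to Golf in the striatum, was at 2.27 ± 0.722 CPM in the wild-type libraries and 0.61 ± 0.0653 CPM in the double knockout (SD, n = 3), with a log2 fold change of -1.89.

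Oprk1, the kappa opioid receptor gene, had a log2 fold change of -1.82 at a low level. It was at 0.099 ± 0.0111 CPM per kb in the wild type and 0.0279 ± 0.00379 CPM per kb in the double knockout (SD, n = 3). Rasd2, by comparison, was at 0.238 and 0.187 CPM per kb. Oprm1, Drd1 and Oprk1 remained called in every alternative fit that tested them, but the fit limited to a mean of at least 1 CPM left out Oprk1. Drd2, Chrm1 and Chrm4, also called, are named after their values were seen. Drd2 fell from 3.12 ± 0.0861 to 1.42 ± 0.299 CPM and Chrm1 from 5.56 ± 1.05 to 2.78 ± 0.42 CPM (SD, n = 3), and Chrm4, a muscarinic receptor gene, rose from 1.63 ± 0.376 to 3.44 ± 0.358 CPM. Each of these 3 lost its call in edgeR in some fits without 1 library, with adjusted p up to 0.0611 for Drd2, without wild-type replicate 2, up to 0.0835 for Chrm1, without wild-type replicate 1, and up to 0.0656 for Chrm4, without double knockout replicate 1. Between 4 and 6 receptor genes were called lower in the 6 fits without 1 library, with 4 without wild-type replicate 1 or 2. Adora2a, the adenosine receptor gene of indirect pathway neurons, had a log2 fold change of -0.75 and an edgeR adjusted p of 0.0733. Cnr1, the cannabinoid receptor gene with the highest level per length of the list, was at 167.2 ± 3.14 and 148.1 ± 9.79 CPM (edgeR adjusted p = 0.196).

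**Figure D3:**
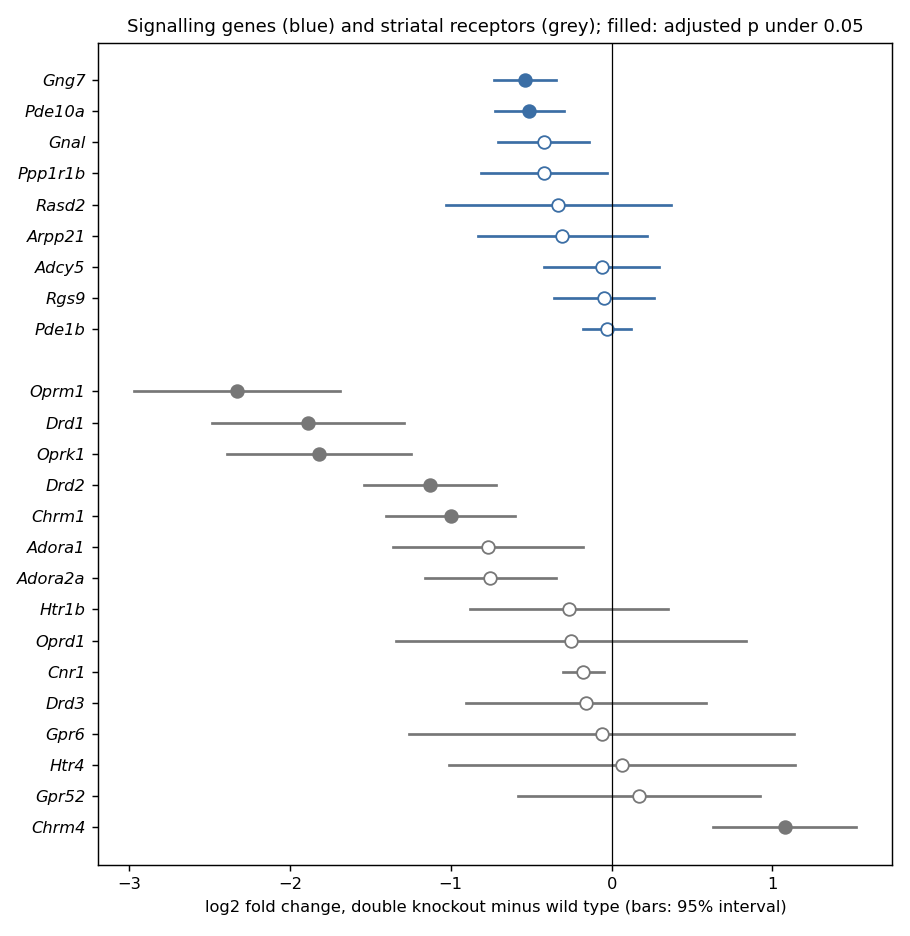
Log2 fold change, double knockout minus wild type, of the 9 signalling genes (blue) and 15 of the 16 receptor genes (grey) with 95% intervals from the edgeR fit. Filled points passed an adjusted p of 0.05. The signalling genes lie between -0.54 and -0.03, and the called receptor genes shown reach from -2.33 to 1.08.

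Outside the receptors, 98 pathway genes were tested, of which 3 were called lower and 3 higher, 6.12% in all against 2.68% of all tested genes, with a median log2 fold change of -0.05. None of the 10 other G protein alpha subunit genes was called. Gnai2, an inhibitory alpha subunit gene with the highest level per length of that list, was at 314.2 ± 14.6 and 385.2 ± 39.4 CPM (edgeR adjusted p = 0.115). At an unadjusted p under 0.05 the list held Gnai2 and Gnai1, and DESeq2 called Gnai2 and limma-voom neither. Over all 23628 tested genes 3149 had an unadjusted p under 0.05 in edgeR, DESeq2 called 1162 and limma-voom 615.

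Of the 14 beta and gamma subunit genes, 1 was called, in the opposite direction to Gng7. Gng12, a gamma subunit gene, was at 22.7, 21.3 and 23.0 CPM in the wild-type libraries and at 28.6, 27.2 and 31.1 CPM in the double knockout, without overlap. Its log2 fold change was 0.38 (SE 0.0739; edgeR adjusted p = 0.0348). In the 6 edgeR fits without 1 library the adjusted p was between 0.0505, without double knockout replicate 3, and 0.135, without wild-type replicate 2. Gnb1, the beta subunit gene with the highest level per length, was at 832.2 ± 21.2 and 800.7 ± 12.8 CPM (edgeR adjusted p = 0.759).

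Neither the 9 other adenylyl cyclase genes, nor the 9 protein kinase A genes, nor the 15 tested partners of DARPP-32 held a gene called by edgeR. At an unadjusted p under 0.05 these lists held 2, 1 and 4 genes, DESeq2 called 2, 0 and 1, and limma-voom 0, 0 and 1. The numbers over all 23628 tested genes were 3149 at an unadjusted p under 0.05, 1162 for DESeq2 and 615 for limma-voom. Adcy6, the closest relative of Adcy5 and the highest of the cyclases per length, was at 53.0 ± 2.66 and 50.9 ± 3.48 CPM. Prkar1a, a regulatory subunit gene of protein kinase A, was at 386.4 ± 7.33 and 360.1 ± 8.81 CPM, and Calm2, a calmodulin gene, at 393.2 ± 8.43 and 358.6 ± 10.6 CPM. Both did not overlap between groups, with edgeR adjusted p of 0.445 and 0.302.

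Of the 15 tested phosphodiesterase genes besides Pde10a and Pde1b, Pde3a was called lower. It was at 15.8, 13.6 and 13.4 CPM in the wild-type libraries and at 8.44, 8.36 and 7.29 CPM in the double knockout, with a log2 fold change of -0.83 (SE 0.104; edgeR adjusted p = 0.00409). This decrease remained called in all 14 alternative fits. Pde7a, the highest of the list per length, was at 114.0 ± 6.58 and 109.4 ± 3.99 CPM (edgeR adjusted p = 0.745).

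The called RGS genes moved in both directions, and no listed partner of Rgs9 was called. Of the 17 RGS and partner genes, 2 were called higher and 1 lower, against 1.34% of all tested genes in each direction. Rgs8 was at 61.4, 56.4 and 61.9 CPM in the wild-type libraries and at 93.9, 99.7 and 82.7 CPM in the double knockout, with a log2 fold change of 0.62 (SE 0.0744; edgeR adjusted p = 0.00328). Rgs16 had a log2 fold change of 0.79 (SE 0.115), and both increases remained called in all 14 alternative fits. Rgs17 fell from 34.0 ± 2.90 to 23.2 ± 3.31 CPM, but its call held in only 6 of the 14, and edgeR gave an adjusted p of 0.157 without wild-type replicate 1, 0.0883 and 0.117 without wild-type replicates 2 and 3, and 0.0536 and 0.0929 without double knockout replicates 1 and 2. Rgs2, the highest of the list per length in the wild type but not in the double knockout, was at 50.2 ± 2.68 and 43.9 ± 2.84 CPM (edgeR adjusted p = 0.239). Among the 9 relatives of Rasd2 and Arpp21, the small GTPase gene Rasl10b was called lower, with a log2 fold change of -0.36 (SE 0.0567; edgeR adjusted p = 0.0121). That call was lost without wild-type replicate 1 or 3 or double knockout replicate 1, with edgeR adjusted p of 0.0633, 0.0607 and 0.054.

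**Figure D4:**
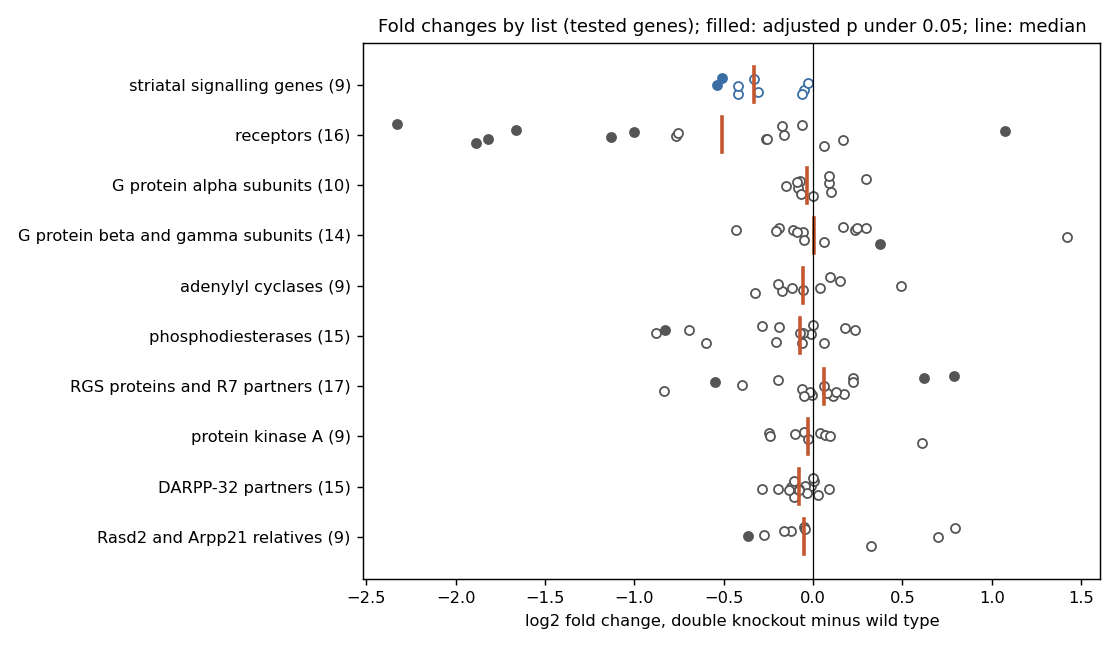
Log2 fold change of each tested gene in the 9 signalling genes (blue) and in 9 lists of other pathway genes (grey), with the number of genes tested in brackets. Filled points passed an adjusted p of 0.05, and the red line is the list's median, -0.33 for the signalling genes and -0.51 for the receptors.

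Each of the 9 genes was also set against a relative in the same library, as the difference of their log2 counts, which does not depend on library scaling. The relatives were Gnas, Gng12, Adcy6, Pde2a for Pde10a, Pde1c for Pde1b, Rgs11, Ppp1r1a, R3hdm1 for Arpp21 and Rasd1. The log2 ratio of Gng7 to Gng12 was 0.10 ± 0.08 in the wild type and -0.82 ± 0.19 in the double knockout (SD, n = 3), a difference of -0.91 without overlap between groups. Gng12 was itself called higher, at a log2 fold change of 0.38. For Rgs9 to Rgs11 the difference in ratio was 0.80 and for Rasd2 to Rasd1 it was -1.07. Both rest on few reads, with 26 to 84 per library for Rgs11, 22 to 56 for Rasd2 and 28 to 83 for Rasd1. The means of Rgs11 and Rasd1 differed between groups as well, without overlap of libraries for Rgs11 and with overlap for Rasd1. Wild-type and double knockout means were 0.256 and 0.143 CPM per kb for Rgs11, and 0.402 and 0.655 CPM per kb for Rasd1. Rgs9 and Rasd2 themselves had fitted log2 fold changes of -0.05 and -0.33, and none of Rgs9, Rgs11, Rasd2 and Rasd1 was called. The Gng7, Rgs9 and Rasd2 pairs each gave an exact two-sided permutation p of 0.10, the smallest possible here, and 0.30 after adjustment over the 9 pairs. The ratio of Gnal to Gnas differed by -0.50, with wild-type and double knockout means of -1.51 ± 0.378 and -2.02 ± 0.122, and an exact permutation p of 0.20. Reads in the opposite-strand overlaps of Gnal and Gnas were not measured, so this ratio is uncertain. The other 5 pairs had differences from -0.45, for Ppp1r1b to Ppp1r1a, to 0.12, for Pde10a to Pde2a, and exact permutation p of at least 0.30. Pde2a had only 295 reads over the 6 libraries, and in GENCODE M21 Gm45837, with 0 reads, overlaps 64.3% of its exon length on the same strand, so its counts and that ratio are uncertain.

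For each of the 9 genes, the gene with the most similar pattern was found as the smallest root mean square difference of centred log2 CPM over the 6 libraries, among genes whose mean reached 1 CPM. Sult4a1 was closest to Pde10a, with a difference of 0.0277, and Plcb1, which encodes a phospholipase C downstream of G proteins, was closest to Gng7, with 0.048. Both were themselves called lower, with log2 fold changes of -0.49 for Sult4a1 and -0.50 for Plcb1. Such similar fold changes follow in part from the choice, since the 6 matched values include the difference between groups. The genes nearest to Adcy5, Gnal and Arpp21 were Gpr158, Cdk20 and Ptprr, with differences of 0.0286, 0.025 and 0.0567. Those nearest to Ppp1r1b, Rgs9, Pde1b and Rasd2 were Tpm2, Gm32856, Ttc33 and Shroom1, with differences of 0.0419, 0.0406, 0.0136 and 0.11.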

How the data were processed

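The authors deposited 1 table of raw read counts (whole numbers, not normalised) with 1 column per library, and featureCounts and build GRCm39 are named in the submitters' processing notes. Per the labels' protocols, total RNA was treated with DNase and libraries were made with a stranded kit that depletes ribosomal RNA. The aligner, annotation and strand setting are not given in the sources used here. Genes were filtered with filterByExpr (minimum count 10, minimum total 15) and tested in edgeR 4.0.16 (TMM, quasi-likelihood, prior count 0.125, Benjamini-Hochberg over all 23628 tested genes, threshold 0.05) in R 4.3.3, without a pairing term. The script was tested on simulated data. SE and 95% intervals came from the F statistic. Ratios used counts plus 0.5. Exon lengths and overlaps came from GENCODE M21 (GRCm38), which held 220 of the 221 listed genes. Alternatives included DESeq2 1.42.0 and limma-voom (limma 3.58.1). A count of 3 corresponded to 0.0432 to 0.052 CPM, for counting error only.

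Genes and lists were chosen with earlier results of these data known. Named were the 9 genes, Dlx1 and Dlx2, up to 4 called genes of each list with the largest changes, the uncalled gene highest per length, the paired relatives and the nearest patterns. Drd2, Chrm1, Chrm4, Adora2a, Gnai1 and the members called in the marker lists were named after their values were seen. Values for 1 receptor gene are not reported here, although it is counted in its list.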

Additional observations from a re-analysis of the deposited data

How the results depend on the processing

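The number of genes called lower among the 9 was 2, and 1 with total count scaling, 1 with the Y-linked covariate, 0 at an adjusted p under 0.01, and 0 to 3 in the fits without 1 library (0 without wild-type replicate 1 or 3, 3 without double knockout replicate 3). The cause was not tested. No fit called any of the 9 higher. Their median ranged from -0.41 to -0.18 without 1 library. Over all genes 634 were called, 1162 by DESeq2, 357 with the Y-linked covariate, 275 at an adjusted p under 0.01, and 309 (without wild-type replicate 1) to 749 (without double knockout replicate 3) without 1 library. Total count scaling gave 390 higher and 256 lower, against 317 and 317.

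Fitted values that changed sign were those of genes near 0. Pde1b was at 0.0021 with total count scaling and at -0.0664 to 0.00966 without 1 library, Rgs9 at -0.13 to 0.0709, Adcy5 at -0.17 to 0.12 and R3hdm2 at -0.0751 to 0.0182. Against summed neuron markers, Rgs9, Pde1b and Adcy5 were at 0.16, 0.18 and 0.13. Without 1 library the ratios ranged from -0.19 to 0.23 for Adcy5 to Adcy6, from -0.14 to 0.29 for Pde10a to Pde2a and from -0.51 to 0.0381 for Arpp21 to R3hdm1, and the other 6 kept their sign, as all 9 did at a pseudocount of 5.

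The replicate block called 690 genes, of which 560 were shared with the 634, and changed no call among the 9 genes, at -0.54 for Gng7 and -0.51 for Pde10a. In the pathway lists it called 7 receptors lower against 6, 2 phosphodiesterases lower against 1 and 1 adenylyl cyclase higher against 0, with no other count changed. The labels do not tie same-numbered libraries to a litter. Same-numbered libraries had correlations of deviations of -0.0694, -0.00223 and 0.00182 over all tested genes. Over the 16487 genes whose mean reached 1 CPM they were -0.247, -0.0264 and 0.0107. Y-linked expression was present in only 1 library of each same-numbered pair. Over 16482 such genes, leaving out Xist and Y-linked genes, the correlations were 0.166, 0.115 and 0.104. All 6 libraries correlated best with their own number there. The numbers were not taken as a pairing, since this depended on the genes used. Among the 9 genes Rasd2 had the fewest reads, 22 to 56 per library.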
